A study of Zea mays subsp. mays x Zea mays subsp. mexicana with 20 samples.

Results

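Chromosomes 1, 4, 7, 8 and 9 of the maize inbred W22 were described here as the chromosomes with almost no SNPs in a table made from homozygous *Tpd1;Tpd2* lines. They were chosen by their SNP counts, because none of their 1-Mb windows held many, so their low counts are a description and were not tested. They made up 1095 of the 2127 chromosomal windows in the SNP table, which had 2311 windows in all. *Tpd1* and *Tpd2* are the loci of *Teosinte Pollen Drive*, a selfish system that entered maize from the wild teosinte *mexicana* and favours its own transmission through pollen. Both sequenced lines carried *Tpd1* and *Tpd2* in the homozygous state in a W22 background, and both descended from a teosinte gamete crossed to W22. The first line, BC8S3, had 8 generations of backcrossing to W22 and 3 of selfing. The second line, BC5S2, had 5 of backcrossing and 2 of selfing by its title. Each line was sequenced as 1 library of leaf DNA from bulked seedlings. Another 18 libraries were pools of drive, fertile and sterile progeny, 6 pools each, and were not analysed here.

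The table gives 1 number per window, the count of SNPs fixed for a base other than that of W22. Which line or lines the count comes from is not given in the sources used here, and the table is named for both, so no value below has a replicate and none can be assigned to one line. The study describes intervals of teosinte DNA that only 1 of the lines carried. It also ties intervals to the drive on chromosomes 1 and 4, which are in this set. A low window here therefore cannot be read as W22 sequence in each line. The sum over the table is also below the size of the marker set that the study gives for its lines, so shares of the total apply to this table only. Read depth is unknown. Windows with few SNPs and windows in which few bases could be called cannot be told apart.

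Backcrossing replaces donor chromosomes with those of the recurrent parent, and selfing then fixes what is left, so the donor genome remains as introgressions, which are blocks dense in donor SNPs. Blocks that selection or drive retains, with their linked neighbours, can outlast many backcrosses, whereas unlinked chromosomes are expected to return to the recurrent parent. Maize chromosomes recombine mostly towards their ends, and long regions around the centromere recombine rarely.

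The windows also carry loci of small RNAs that the study lists as more abundant in pollen with the drive than in wild-type pollen. The drive plants were heterozygous for *Tpd1* and *Tpd2* and came from later backcrosses than the lines whose SNPs were counted. Small interfering RNAs (siRNAs) of 22 nt are cut from double-stranded RNA by the enzyme Dicer-like 2 and can trigger further silencing. The list had 158 clusters of such siRNAs, of which 156 lay on chromosomes, and only their positions, annotations and most abundant RNA (the major RNA) were used here. The sequences below are shown because the same 22-nt RNA, or one that differs by 1 base, was listed at more than 1 locus, of which at least 1 lay on these chromosomes. Capitals mark the base that differs within a pair, and sequences in lower case throughout were identical at every locus given. Most belong to PIF/Harbinger elements, which are DNA transposons. The first pair differed by A15C, with positions counted from 1 at the 5′ end. Its first member was listed at chr7:96555605-96556834, chr9:59269450-59270088 and chr6:122519679-122521020, and its second at chr9:142850059-142850663.
Harbinger RNA of chromosomes 7, 9 and 6: caacucaagguucaAuggaaga
Harbinger RNA of chromosome 9: caacucaagguucaCuggaaga
The next pair differed by C11U. Its first member was listed at chr1:222304787-222305955 and its second at chr1:49597464-49598061 and chr6:93200094-93200760.
Harbinger RNA of chromosome 1: augguugggaCcguaaucguuu
Harbinger RNA of chromosomes 1 and 6: augguugggaUcguaaucguuu
The second member differed by C12U from an RNA listed on chromosome 3, in which the capital marks that base.
RNA of chromosome 3: augguugggauUguaaucguuu
A further pair differed by G2U, and its first member was listed at chr9:155338155-155338620.
Harbinger RNA of chromosome 9: cGggagcugcuuaaguaugaag
RNA of chromosome 10: cUggagcugcuuaaguaugaag
Other RNAs were identical at both of their loci. They were listed at chr1:35618759-35620089 and chr5:212417102-212418399, at chr1:299911700-299913160 and chr8:161282050-161283059, at chr1:46610353-46610915 and chr3:110768788-110769732, at chr9:6069777-6070856 and chr9:26400033-26400823, and at chr1:135045250-135045970 and chr2:115786001-115786271, in the order printed.
Harbinger RNA of chromosomes 1 and 5: caacgugcugcaccgaucacca
Harbinger RNA of chromosomes 1 and 8: cgaacauuuggaguacuacaga
Harbinger RNA of chromosomes 1 and 3: cgaacuauggcccaucgcuucu
LTR retrotransposon RNA of chromosome 9: cuuggugaguuuucuugaaguu
Centromeric retrotransposon RNA of chromosomes 1 and 2: guugacugugauguugugccua
Reads of an identical RNA cannot be assigned to one of its loci by sequence, so for these RNAs the locus of origin cannot be told. For those listed on more than 1 chromosome, the chromosome of origin cannot be told either. The windows that hold the clusters are described after the counts of the chromosomes themselves.

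Across chromosomes 1, 4, 7, 8 and 9, 2141 SNPs were counted over 1092 Mb, which is 1.96 SNPs per Mb (95% Poisson interval 1.88 to 2.04). All intervals here cover counting error only. These chromosomes made up 51.5% of the chromosomal length and held 0.765% of the 279947 chromosomal SNPs (95% Wilson interval 0.733 to 0.798). None of their windows reached 1000 SNPs per Mb, against 4.65% of all chromosomal windows, and none reached 100, against 5.36%. Both zeros follow from how the chromosomes were chosen, so nothing is read from them. The highest window held 12 SNPs. On the other chromosomes, 2, 3, 5, 6 and 10, the highest low window held 49 SNPs at chr10:12000001-13000000, and the next count above it was 114 at chr2:233000001-234000000. The 114 windows of 100 or more SNPs averaged 2424 SNPs per Mb, which was 1237 times the density of the 5 chromosomes. At that density a block of 4.95 kb would hold 12 SNPs, and 883 kb would hold all 2141. These lengths only give a scale, and whether these SNPs come from teosinte was not tested.

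Most windows held very few SNPs. Of the 1095 windows, 268 held none (24.5%, 95% Wilson interval 22.0 to 27.1), 287 held 1, 199 held 2 and 149 held 3. The median was 1, and 754 windows (68.9%) held at most 2. At the other end, 109 windows (9.95%) held 5 or more, 27 held 7 or more and 10 held 9 or more. The windows at 5 or more were spread unequally, with 46 on chromosome 1, 49 on chromosome 4, 2 on chromosome 7, and 6 each on chromosomes 8 and 9. All but 1 of the 27 windows at 7 or more lay on chromosomes 1 and 4, and the exception was on chromosome 8. A Poisson draw with the same mean would leave 14.2% of windows, or 155, at 0. The variance of the counts was 1.89 times their mean, where such a draw gives 1.

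The chromosomes differed in density. Chromosome 4 was the highest, with 671 SNPs at 2.64 SNPs per Mb (95% Poisson interval 2.44 to 2.85). Chromosome 1 held 733 SNPs at 2.36 per Mb (2.19 to 2.53), and chromosome 9 held 305 at 1.87 per Mb (1.67 to 2.09). Chromosome 8 held 245 SNPs at 1.34 per Mb (1.18 to 1.52), and chromosome 7 was the lowest with 187 at 1.03 per Mb (0.888 to 1.19). The closest pair was chromosome 1 over chromosome 4, with a density ratio of 0.893 (0.803 to 0.993). The widest span was chromosome 4 over chromosome 7, at 2.56 (2.17 to 3.03). Neighbouring windows were not independent, so these intervals are too narrow, and whether any pair differs was not tested. Chromosomes 1 and 4 together held 65.6% of the SNPs on 51.7% of the length.

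**Figure D1:**
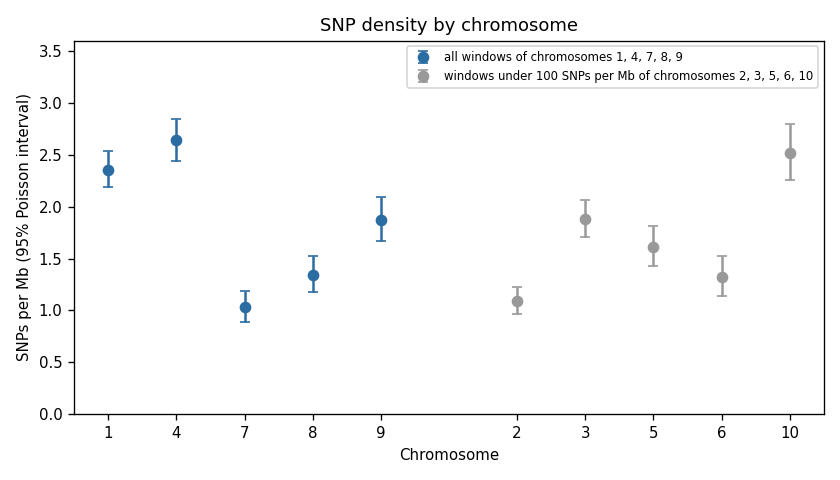
SNPs per Mb with 95% Poisson intervals for chromosomes 1, 4, 7, 8 and 9 (blue, all windows) and for the windows under 100 SNPs per Mb of chromosomes 2, 3, 5, 6 and 10 (grey). The blue points run from 1.03 on chromosome 7 to 2.64 on chromosome 4, and the grey points from 1.09 on chromosome 2 to 2.51 on chromosome 10.

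The share of windows without a SNP followed another order. On chromosome 7, 72 of 182 windows held none (39.6%), and on chromosome 8, 55 of 183 (30.1%). The share was 20.6% on chromosome 1 (64 of 311), 18.4% on chromosome 4 (47 of 255) and 18.3% on chromosome 9 (30 of 164). Chromosome 9 thus had as few empty windows as chromosome 4, with a lower density and no window above 6. Its variance was 1.02 times its mean, and 30 of its windows held none where a Poisson draw would leave 25.5. Chromosomes 1 and 4 were the most uneven, at 2.15 and 1.76 times, and had 29.5 and 18.4 windows expected at 0 in place of 64 and 47. Chromosomes 7 and 8 lay between, at 1.28 and 1.45 times.

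**Figure D2:**
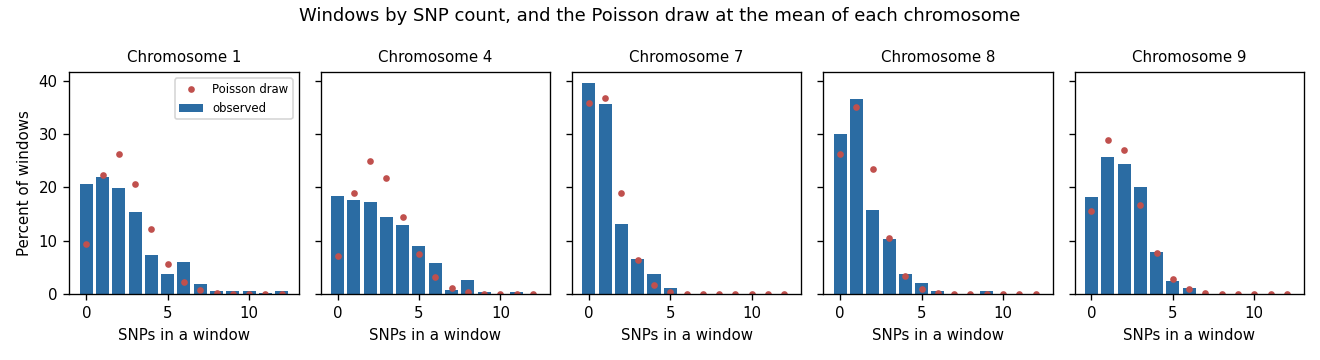
Percent of windows (y axis) at each SNP count (x axis) on the 5 chromosomes, with bars for the observed windows and points for a Poisson draw at the mean of that chromosome. Chromosomes 1 and 4 exceed the draw at 0 SNPs and in a tail out to 12 and 11, while chromosome 9 follows it.

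The 918 windows under 100 SNPs per Mb on chromosomes 2, 3, 5, 6 and 10 are the most like set, and both sets are low by selection. The density was 1.96 SNPs per Mb on the 5 chromosomes and 1.63 (1.55 to 1.72) in those low windows, a ratio of 1.20 (95% interval 1.12 to 1.28). This ratio rested on chromosomes 1 and 4, and for chromosomes 7, 8 and 9 alone it was 0.857. By chromosome the sets overlapped, with 1.03 to 2.64 SNPs per Mb on the 5 chromosomes and 1.09 to 2.51 in the low windows. The share of windows at 0 was 24.5% on the 5 chromosomes and 26.5% in the low windows. The highest count was 12 on the 5 chromosomes and 49 in the low windows. The 184 windows of 181 unplaced scaffolds held 0 SNPs.

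Along chromosome 1, SNPs were concentrated in its middle. From chr1:100000001-180000000, 80 windows held 394 SNPs, a density of 4.93 per Mb, and the other 231 windows held 339, a density of 1.47 per Mb, for a ratio of 3.35 (95% interval 2.89 to 3.89). This stretch was outlined after the counts were seen, as were the others described here, so its contrast is a description without a test. It held 53.8% of the chromosome's SNPs on 25.7% of its length. Its median window held 4.5 SNPs and only 1 of its 80 windows held none, while the median elsewhere on the chromosome was 1 and 63 of 231 windows (27.3%) held none. Every block of 10 consecutive windows in it, taken from the start of the chromosome, held 39 to 64 SNPs, against 8 to 28 in the full blocks outside. All 15 windows of chromosome 1 with 7 or more SNPs lay inside, and no window outside exceeded 6.

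The edges of this stretch differed. At its left edge the last 5 windows before it held 1, 1, 0, 0 and 5 SNPs and the first 5 within it 6, 8, 6, 3 and 3. At its right edge the last 5 windows held 3, 2, 2, 2 and 8, and the 5 that followed held 2, 3, 2, 0 and 0. The counts thus changed within a few windows on the left and less abruptly on the right. Beyond the right edge, chr1:185000001-186000000 and chr1:187000001-188000000 still held 6 SNPs each. Single windows vary by counting error alone, so whether the edges differ in shape was not tested. The richest 10 consecutive windows of the 5 chromosomes were chr1:140000001-150000000, with 64 SNPs. Away from the stretch, chromosome 1 was sparse, with a longest run of 4 empty windows at chr1:288000001-292000000. Its poorest 10 consecutive windows, chr1:203000001-213000000, held 4 SNPs.

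Chromosome 4 had a longer and lower stretch of this kind. From chr4:10000001-170000000, 160 windows held 569 SNPs, a density of 3.56 per Mb, and the other 95 windows held 102, a density of 1.08 per Mb, for a ratio of 3.29 (2.66 to 4.10). The stretch held 84.8% of the chromosome's SNPs on 62.9% of its length. Only 8 of its 160 windows (5%) were empty, against 39 of 95 (41.1%) elsewhere. Its blocks of 10 windows held 25 to 48 SNPs. The first 5 windows in it held 3, 6, 8, 2 and 8 SNPs, after 1, 0, 1, 1 and 3 in the 5 before, while its last 5 windows held 4, 4, 2, 0 and 2 and the next 5 held 2, 1, 0, 1 and 2. Further along the chromosome the counts were lower still. From chr4:200000001-250000000, 50 windows held 26 SNPs (0.520 per Mb) and 29 of them were empty. Within it, the 20 windows of chr4:210000001-230000000 held 4 SNPs in all, and chr4:216000001-224000000 was the longest empty run on any of the 5 chromosomes, at 8 windows. The last 5 windows, chr4:250000001-254269898, held 12 SNPs.

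Both stretches together covered 22.0% of the length of the 5 chromosomes and held 963 of their 2141 SNPs (45.0%), at 4.01 SNPs per Mb. The other 855 windows held 1178 SNPs at 1.38 per Mb. The variance was 1.28 times the mean inside the stretches and 1.28 times outside them, against 1.89 over all windows together. Outside the stretches chromosome 1 was at 1.47 SNPs per Mb (1.32 to 1.63) and chromosome 4 at 1.08 (0.882 to 1.31), values within the range of chromosomes 7, 8 and 9. Since the stretches were outlined by their counts, taking them out had to lower the remainder, and the richer parts of chromosomes 7, 8 and 9 were left in. Dividing the windows by their counts also lowers the variance within each part, so nothing is read from the fall from 1.89 to 1.28.

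**Figure D3:**
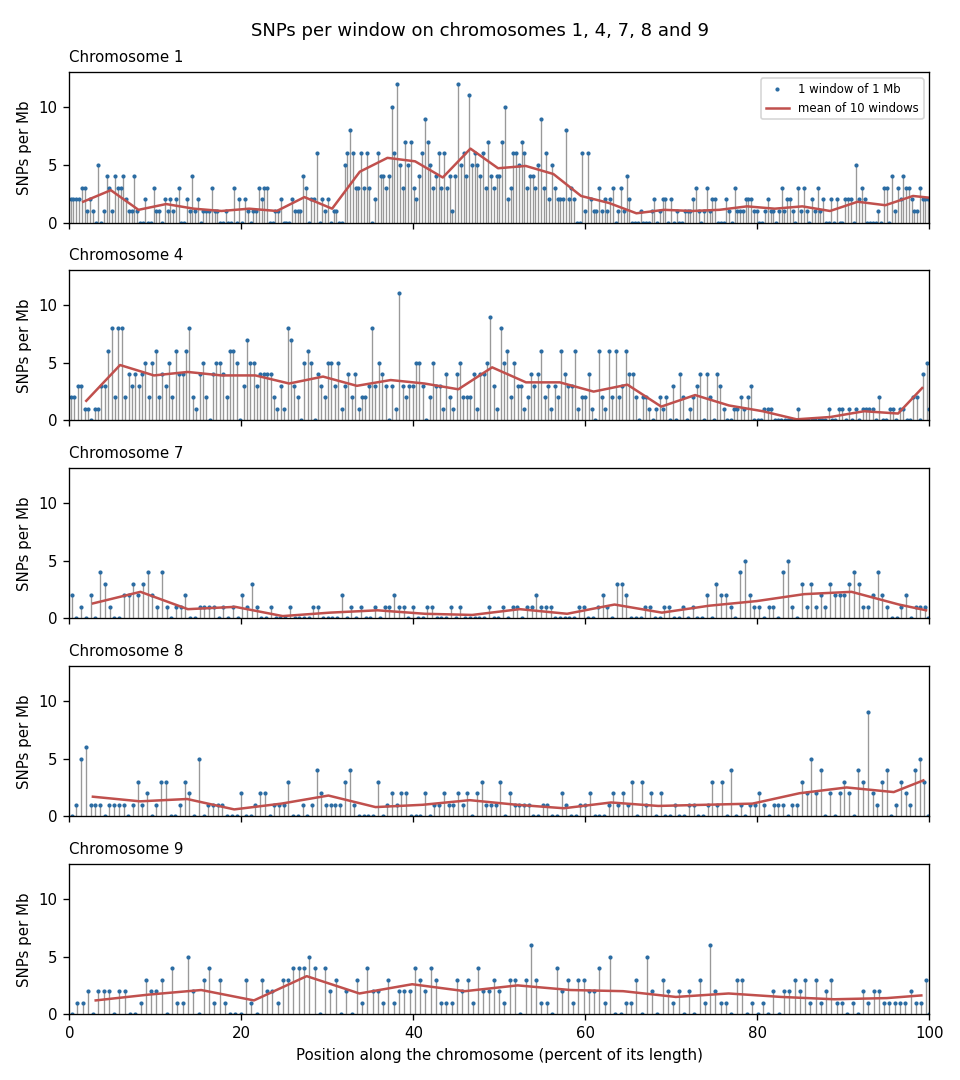
SNPs in each 1-Mb window (blue points, grey stems) along chromosomes 1, 4, 7, 8 and 9, with position as percent of chromosome length on the x axis and the mean of 10 consecutive windows in red. Chromosome 1 has a raised middle with windows of up to 12 SNPs, chromosome 4 is raised over its first part and nearly empty further on, and chromosomes 7, 8 and 9 stay at 9 or below.

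Chromosome 7 had the reverse profile, with SNPs towards its ends. From chr7:40000001-110000000, 70 windows held 33 SNPs, a density of 0.471 per Mb, and 40 of them were empty, against 1.38 per Mb in its other windows. Both of its longest empty runs, of 5 windows each, lay there, at chr7:83000001-88000000 and chr7:102000001-107000000. Nearer the ends, chr7:1-20000000 held 36 SNPs (1.80 per Mb) and chr7:140000001-170000000 held 59 (1.97 per Mb). No window of chromosome 7 exceeded 5 SNPs. Chromosome 8 was raised at one end, with 66 SNPs in chr8:150000001-180000000 (2.20 per Mb) against 1.17 per Mb elsewhere, a ratio of 1.88 (1.39 to 2.50). Its richest 10 windows, chr8:164000001-174000000, held 31 SNPs. Chromosome 9 was the most even. From chr9:40000001-110000000 it held 163 SNPs, at 2.33 per Mb against 1.53 elsewhere, a ratio of 1.53 (1.21 to 1.92), and its longest empty run was 3 windows, chr9:30000001-33000000.

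Each chromosome was also divided into an outer part, the fifth of its length at either end with both ends pooled, and the inner remainder. The outer part was sparser on chromosome 1, at 1.54 SNPs per Mb against 2.90 in the inner part (ratio 0.532, 0.449 to 0.628), on chromosome 4, at 2.13 against 2.98 (0.715, 0.606 to 0.843), and on chromosome 9, at 1.47 against 2.14 (0.685, 0.532 to 0.875). It was denser on chromosome 7, at 1.48 against 0.734 (2.01, 1.49 to 2.72), and on chromosome 8, at 1.74 against 1.07 (1.62, 1.25 to 2.10). Over the 5 chromosomes the ratio was 0.790 (0.722 to 0.864), but chromosomes 7 and 8 ran the other way. With both ends pooled, the outer densities lay closer together, from 1.47 to 2.13 per Mb, than the inner ones, from 0.734 to 2.98. On chromosome 4 the ends differed, so its outer value averages unlike parts. Its blocks of 10 windows in chr4:10000001-50000000 held 3.90 to 4.80 SNPs per Mb, above its inner part, after 1.70 in chr4:1-10000000. Towards the other end, chr4:200000001-250000000 held 0.520 per Mb.

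**Figure D4:**
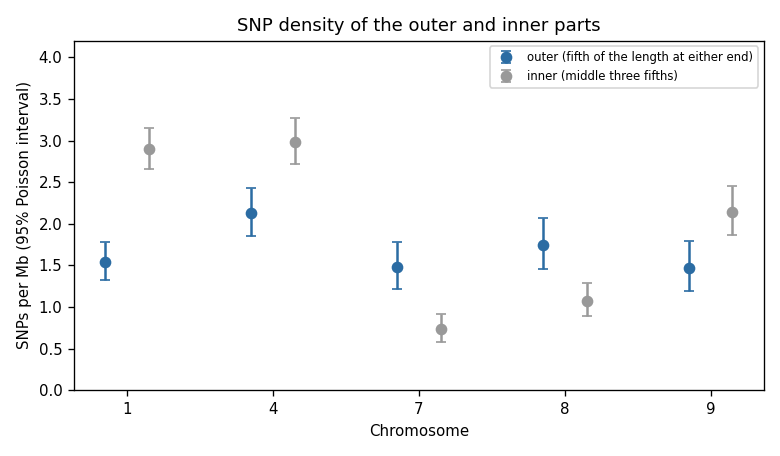
SNPs per Mb (95% Poisson intervals) in the outer part (blue, the fifth of the length at either end, both ends pooled) and the inner part (grey) of chromosomes 1, 4, 7, 8 and 9. The inner part is higher on chromosomes 1, 4 and 9 and lower on chromosomes 7 and 8.

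Neighbouring windows resembled each other on some chromosomes only. The Pearson correlation between adjacent full windows was 0.48 on chromosome 1 (309 pairs), 0.35 on chromosome 4 (253 pairs), 0.37 on chromosome 7 (180 pairs), 0.15 on chromosome 8 (181 pairs) and -0.01 on chromosome 9 (162 pairs). At a distance of 10 windows it was still 0.38 on chromosome 1 and 0.35 on chromosome 4, but 0.15 on chromosome 7, 0.10 on chromosome 8 and 0.04 on chromosome 9. All windows come from the same table. They do not overlap, but most enter more than 1 pair, so these values are descriptions.

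The 10 highest windows, at 9 to 12 SNPs, were 7 on chromosome 1, 2 on chromosome 4 and 1 on chromosome 8. Chromosome 1 had 12 SNPs in each of chr1:118000001-119000000 and chr1:140000001-141000000 (95% Poisson interval 6.20 to 21.0 each). These windows stood in rich surroundings, where the 10 windows on each side averaged 4.65 and 4.70 SNPs. The window chr4:97000001-98000000 held 11 SNPs between neighbours of 1 and 3, with a mean of 3.15 over the 20 windows around it. The window chr8:169000001-170000000 held 9 between neighbours of 3 and 2, with a mean of 2.05. On chromosome 7 the highest windows, chr7:142000001-143000000 and chr7:151000001-152000000, held 5 each, and on chromosome 9 chr9:87000001-88000000 and chr9:121000001-122000000 held 6 each. On chromosome 10, by comparison, the window of 49 SNPs stood between neighbours of 2 and 33, among 20 windows that averaged 4.55. The SNPs themselves were not listed, so whether those of a high window sit in 1 short block or are scattered was not tested.

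Several genes that separate maize from teosinte are known to lie on these chromosomes. *tb1* (*teosinte branched1*), which represses branching, and *gt1* (*grassy tillers1*), which represses tillers, are on chromosome 1, and *tga1* (*teosinte glume architecture1*), which frees the kernel from its hard casing, is on chromosome 4. No W22 annotation was used, so their windows were not identified. The highest window held 12 SNPs on chromosome 1 and 11 on chromosome 4. These limits hold for any gene there and follow from how the chromosomes were chosen, so nothing is read from them about these genes.

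Of the 156 placed siRNA clusters, 71 lay on chromosomes 1, 4, 7, 8 and 9 (45.5%, 95% Wilson interval 37.9 to 53.3), which make up 51.5% of the length. On the other chromosomes 70 clusters lay in low windows and 15 in windows of 100 or more SNPs, which is 9.62% of the placed clusters, where such windows were 5.36% of all chromosomal windows. Chromosome 1 had 26 of the 71 clusters, chromosome 4 had 16, chromosome 9 had 11, chromosome 8 had 10 and chromosome 7 had 8. The major RNA was 22 nt long in 63 of the 71. PIF/Harbinger elements gave 32 clusters, of 69 placed in all, and LTR retrotransposons gave 29 of 56. PIF/Harbinger clusters were 7 of 10 on chromosome 8 and 1 of 8 on chromosome 7.

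These clusters lay in 56 windows with 0 to 6 SNPs. Their median was 1, as it was over all windows of the 5 chromosomes, and their mean was 1.54 against 1.96 over all windows. Of the 56 windows, 12 held no SNP (21.4%, against 24.5% of all windows) and 23 held 1 (41.1%, against 26.2%). Windows with a cluster were 5.11% of the 1095, and none was among the 10 highest, a number too small to read anything from. The sequences printed above came from windows of this range. The RNA caacucaagguucaAuggaaga had its loci on chromosomes 7 and 9 in windows of 1 SNP each and its locus on chromosome 6 in a window of 4. Its variant at position 15, on chromosome 9, lay in a window of 1 SNP. The centromeric retrotransposon RNA guugacugugauguugugccua lay in a window of 6 SNPs on chromosome 1 and in one of 1 SNP on chromosome 2.

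Clusters on centromeric retrotransposons of maize (CRM), elements known to gather at centromeres, gave a position mark inside both rich stretches. The 5 chromosomes had 7 of the 9 placed CRM clusters. On chromosome 1 all 3 lay in chr1:135000001-136000000, a window of 6 SNPs, and on chromosome 4 all 4 lay in chr4:108000001-109000000, a window of 3 SNPs. Elsewhere, the CRM cluster that shares its major RNA with chromosome 1, at chr2:115786001-115786271, lay in a window of 1 SNP. The remaining CRM cluster is not described here. Chromosomes 7, 8 and 9 had none in the list, so the same mark could not be placed there. Whether the rich stretches follow the centromeres was not tested. Of all listed clusters, the rich stretch held 4 of 26 on chromosome 1 (15.4%, on 25.7% of the length) and 9 of 16 on chromosome 4 (56.2%, on 62.9% of the length). The sparse stretch of chromosome 7 held 3 of 8 (37.5%, on 38.6% of the length). These counts are small, and those of chromosomes 4 and 7 were close to the shares of length.

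Among the 71 clusters 2 were annotated to genes. Their major RNAs are shown because each cluster overlapped a named W22 gene model on a chromosome with few SNPs. Whether the siRNAs come from the genes themselves was not tested. The first, at chr1:2799107-2805519, overlapped Zm00004b000059 and Zm00004b000060 in a window of 2 SNPs. Clusters annotated to hAT elements, which are DNA transposons, lay on both sides of it in that window, at chr1:2795908-2797060 and chr1:2807566-2808865. The second, at chr9:155605079-155607529, overlapped Zm00004b034487 in a window of 1 SNP. No function is given for these gene models in the sources used here.
Gene cluster RNA of chromosome 1: gauucugcccuugaacugcuac
Gene cluster RNA of chromosome 9: guacaaggaacaaaggugacuc

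**Figure D5:**
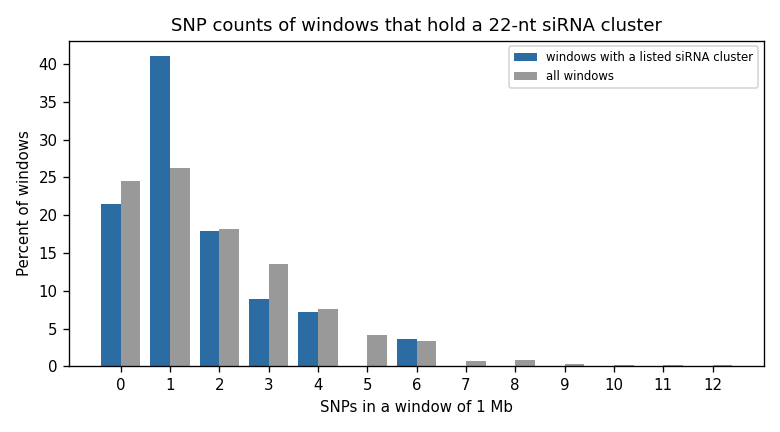
Percent of windows (y axis) at each SNP count (x axis), for the 56 windows of chromosomes 1, 4, 7, 8 and 9 that hold a listed 22-nt siRNA cluster (blue) and for all 1095 windows (grey). Windows with a cluster hold 0 to 6 SNPs and are most often at 1 SNP, at 41.1% against 26.2% of all windows.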

How the data were processed

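The authors trimmed paired reads of both homozygous lines with Cutadapt (v3.1), aligned them to the W22 genome (NRGene 2.0) with BWA-MEM (v0.7.17), kept alignments with a mapping quality of at least 30, removed duplicates with SAMtools (v1.10) and kept Freebayes SNPs with an allele frequency of 1. The authors deposited raw SNP counts for windows of 1 Mb, with no normalization. How SNPs were binned is not given in the sources used here. Starts were written 1-based. Densities are summed SNPs over summed window length, with 95% exact Poisson intervals, exact conditional intervals for ratios and Wilson intervals for shares, and the last, shorter window of each chromosome was weighted by its length. No significance test was run, since the chromosomes were chosen on the same counts and 1 column gives no replicates. The members and lists were chosen with earlier results of these data known. siRNA clusters were placed by midpoint and taken as W22 coordinates because their gene identifiers are those of W22. Windows named were the highest of each chromosome, the 10 highest over the 5 chromosomes, the longest empty runs and the richest 10 consecutive windows. RNAs printed were those listed at 2 or more loci or overlapping genes, with at least 1 locus on these chromosomes. All pairs of listed RNAs that differ by 1 base and have a member there were added after the sequences were seen. The scripts were tested on simulated counts. Values were computed in Python (v3.11.15) with SciPy (v1.17.1), pandas (v2.3.3) and NumPy (v2.4.6), and plots were drawn with matplotlib (v3.10.9).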

Additional observations from a re-analysis of the deposited data

How the results depend on the processing

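The density of the 5 chromosomes, 1.96 SNPs per Mb, became 1.80 without chromosome 1, 1.75 without chromosome 4, 2.15 without chromosome 7 and 2.08 without chromosome 8, and the median over windows was 1. Its ratio to the low windows of the other chromosomes, 1.20, became 1.33 without chromosome 10. It turned to 0.857 with chromosomes 7, 8 and 9 only, an alternative added after the data were seen. The ratio of variance to mean, 1.89, became 1.53 as the mean of the 5 chromosomes. The ratio of outer to inner density, 0.790, became 0.937 with an outer part of 10% and 0.967 with the outer 20 Mb at either end. The ratio for the stretch of chromosome 4, 3.29, became 2.28 with its limits moved 10 windows along the chromosome, and that of chromosome 1, with its limits 10 windows wider or narrower, stayed between 2.98 and 3.35, both also chosen after the data were seen. Of 23 alternatives, 12 moved a value by less than its error, 10 moved it by more and 1 reversed its direction. Some of the 12 were fixed in advance. No window of the 5 chromosomes held more than 12 SNPs and no low window more than 49, so other thresholds above these gave the same values. No paired analysis was possible because the table has 1 column for both lines and the numbered pools were not analysed here. Counting error limits every single window, and without read depth or SNP positions the share of each window that could be called is unknown.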
